A study of Mus musculus with 7 samples.

Results

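The Myc, Max and Mxd network was followed here as 9 genes: Myc, Mycn, Max, Mxd1, Mxd3, Mxd4, Mxi1, Mnt and Mga. They were taken by symbol from the deposited table of 46959 features, and 8 of the 9 passed the filter on low reads and were tested. The RNA came from mouse splenic B cells, purified and grown for 4 days with lipopolysaccharide (LPS, 1 µg/mL), a bacterial activator of B cells, and interleukin 4 (IL-4, 20 ng/mL). Cells labelled WT (wild type, n = 3) were compared with cells labelled cKO MED1 (n = 4), a conditional knockout of Med1. Med1 protein belongs to Mediator, the complex that connects factors on enhancers with the transcription machinery. The strain, age and sex of the mice, the Cre line behind the deletion and whether each library came from its own mouse are not given in the sources used here. The p-values therefore measure the spread between these libraries, which may be technical. The series title concerns Med1 and the expression, hypermutation and recombination of the IgH genes; the comparison here asks how the network's RNAs differ in the same libraries.

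Myc proteins bind DNA only as a dimer with Max, and they bind the E-box CACGTG to raise the output of genes for growth, ribosome production and the cell cycle. The Mxd proteins (Mxd1, Mxd3, Mxd4 and Mxi1), Mnt and Mga take Max as their partner as well, sit on the same E-boxes and bring in repressors, so they are called antagonists of Myc. In B cells Myc is induced on activation and is known for its part in growth, germinal centres and lymphoma.

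The E-box can be read in the promoters of the network's own genes. RefSeq promoter windows of 300 bases on GRCm38.p6, which span the start of a transcript, were found for 8 of the 9 members, and Myc had no entry. The motif searched was CACGTG, which reads the same on both strands. It was present in the windows of 3 members (Max, Mnt and Mxd4) and in 8.09% of 27025 genes with a window (11.2% of the tested genes). The 3 stretches that hold it are shown with the E-box in capitals, beside a stretch of Mxi1, which had 3 windows and no E-box in any of them. The stretches lie at chr12:76962244-76962343 (minus strand) for Max, chr11:74830754-74830853 (plus) for Mnt, chr5:34187861-34187960 (minus) for Mxd4 and chr19:53310411-53310510 (plus) for Mxi1.
Max: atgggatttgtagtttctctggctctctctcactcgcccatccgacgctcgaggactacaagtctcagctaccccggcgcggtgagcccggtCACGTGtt
Mnt: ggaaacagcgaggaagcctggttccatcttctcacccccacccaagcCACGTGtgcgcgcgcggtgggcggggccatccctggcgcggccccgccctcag
Mxd4: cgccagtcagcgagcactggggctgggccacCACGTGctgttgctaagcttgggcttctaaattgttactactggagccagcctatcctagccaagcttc
Mxi1: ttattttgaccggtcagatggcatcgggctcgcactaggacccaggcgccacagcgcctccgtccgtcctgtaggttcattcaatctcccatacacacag
In Max the E-box began 3 bases before the RefSeq start and spans it. In Mnt it began 123 bases and in Mxd4 219 bases before the start. A match is a description of the letters and not a measured binding site. Of these 4 genes, Max fell, Mxi1 rose, and Mnt and Mxd4 did not pass the test, as described next.

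Recovered reads per library ranged from 31937372 to 61149274, with the WT libraries all deeper than the cKO MED1 ones. Med1 was at 4173 to 4755 normalised reads (reads scaled to a common library of 48019763) in WT and at 2172 to 2585 in cKO MED1. All 10 B cell markers were measured in both groups, and 5 of them passed the test, all lower. The T cell marker Cd3e was at 0 to 9.15 reads. The summed T cell list (1255 to 1677 in WT, 1109 to 1316 in cKO MED1) was mostly Lck, at 913 to 1614. Of 8 tested T cell markers, Lck passed lower and Bcl11b passed higher. Bcl11b was at 4.13 to 8.16 reads in WT and 14.6 to 71.4 in cKO MED1. The other tested T cell markers had positive log2 fold changes and did not pass. The summed markers of neutrophils, dendritic cells, and megakaryocytes with platelets were higher in every cKO MED1 library. They went from 2.75 to 13.9 up to 20.3 to 86.0 reads, from 2609 to 3532 up to 4025 to 5192, and from 31.7 to 50.6 up to 108 to 185. The stromal and endothelial sum was 1396 to 1634 in WT and 1030.3 to 1241 in cKO MED1. Of the neutrophil, dendritic cell and megakaryocyte lists 1, 5 and 1 markers had enough reads to be tested, of which 1, 3 and 1 passed, all higher. No marker was at 0 in all libraries, and the part of such cells in the results was not tested. By Ddx3y and Xist, the 3 WT libraries and cKO MED1 replicate 3 were male and cKO MED1 replicates 1, 2 and 4 were female, so genotype and sex can largely not be told apart. WT replicate 2, male by Ddx3y, also had 1241 normalised reads of Xist, against 11.2 and 59.2 in the other WT libraries and 36381 to 41074 in the female ones. The first principal component held 71.5% of the variance, with WT replicate 1 at one end and cKO MED1 replicate 4 at the other. The share of reads from mt-Rnr2, the large mitochondrial ribosomal RNA, ran from 17.7% to 22.5% in WT and from 21.0% to 35.5% in cKO MED1. The background on silent olfactory and vomeronasal receptor genes was 0.0917 to 0.204 and 0.196 to 0.892 normalised reads per kb of exon. In 28.0% of all 18062 tested genes limma's adjusted p was under 0.05, 14.6% lower and 13.4% higher in cKO MED1.

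Of the 8 tested members, Myc and Max fell in cKO MED1, Mxi1 rose, and the other 5 did not pass. These 3 of 8 calls stand beside 28.0% of all tested genes. The 3 called genes and 2 of the others (Mxd4 and Mga) lie in the highest of 3 equal classes of tested genes by mean level, where 27.6% were lower and 5.4% were higher. Mxd1, Mxd3 and Mnt lie in the middle class, with 15.4% lower and 12.8% higher, and no tested member lies in the lowest class, with 0.98% and 22.0%. Without WT replicate 1, when Myc alone was called lower and no member higher, 5.25% of all genes were lower and 2.69% higher. Without cKO MED1 replicates 3 and 4, when Myc was lower and Mxi1 higher, the shares were 7.34% and 5.0%. The groups did not overlap in Myc, Max and Mxi1 and overlapped in the other 5, against 39.1% of all tested genes without overlap.

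Myc, the factor that dimerises with Max to drive growth genes, was the member with the largest fold change. In WT replicates 1 to 3 its normalised reads numbered 3787, 3414 and 3223. In the 4 cKO MED1 libraries, in order of replicate number, they numbered 2630.1, 2359.8, 1874 and 1717. All 4 cKO MED1 libraries lay below all WT libraries, and the cKO MED1 libraries differed among themselves more than the WT libraries did. WT averaged 3475 ± 287 (SD, n = 3) against 2145 ± 424 (SD, n = 4), which is 61.7% of the WT level. On log2(normalised reads + 1), cKO MED1 minus WT, the log2 fold change came to -0.71 with an SE of 0.14 (limma adjusted p = 0.00591). Among the male libraries alone, cKO MED1 replicate 3 lay 0.89 below the WT mean on the log2 scale, a difference of -0.89 that rests on 1 library, and with sex as a covariate the call ended (limma adjusted p = 0.0802). The female cKO MED1 libraries held both the highest and the lowest Myc level of their group. The mt-Rnr2 share was lowest in cKO MED1 replicate 1, at 21.0%, and highest in replicate 4, at 35.5%, where Myc was highest and lowest in that group, and the part of this share in the result was not tested. In bulk RNA, fewer cells that express a gene and less RNA per cell cannot be told apart. Myc (ENSMUSG00000022346.15) lies on chromosome 15 from 61985391 to 61990374 (GRCm38, plus strand).

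Mycn, a Myc paralog used mostly in embryonic and neural tissue, was barely detected. It had 0, 3 and 4 recovered reads in the WT libraries and 6, 6, 8 and 3 in the cKO MED1 libraries, too few for the filter. Normalised, these were 0 to 3.19 in WT and 5.49 to 10.5 in cKO MED1, without overlap. No fold change is given at such counts. Per kb of exon, Mycn stood at 0.571 ± 0.507 (SD, n = 3) normalised reads in WT and 2.28 ± 0.71 (SD, n = 4) in cKO MED1, against 1279 ± 106 and 789.5 ± 156 for Myc. The mean Mycn level was above the receptor background in both groups, and that background was higher in cKO MED1 as well. In WT replicate 1 Mycn was at 0. In cKO MED1 replicate 4 it rested on 3 reads, at 1.67 per kb against a background of 0.892. A difference from background was not tested at such counts.

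Max, the shared partner of Myc and the antagonists, fell by less than Myc. WT replicates 1 to 3 held 2565, 2415 and 2262 normalised reads of it, and the cKO MED1 libraries, by replicate number, 2001, 1923, 1734.5 and 1700.2. The groups were separate, and the order of the libraries was that seen for Myc. WT averaged 2414 ± 151 (SD, n = 3) and cKO MED1 1839.8 ± 146 (SD, n = 4), or 76.2% of WT. The difference on the log2 scale was -0.39 with an SE of 0.09 (limma adjusted p = 0.0126). The call ended with sex as a covariate (-0.47, limma adjusted p = 0.134), without WT replicate 1 (-0.40, limma adjusted p = 0.0563) and with cKO MED1 replicates 3 and 4 both left out (-0.29, limma adjusted p = 0.0657). Max (ENSMUSG00000059436.13) lies on chromosome 12 from 76937269 to 76962201, minus strand.

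**Figure D1:**
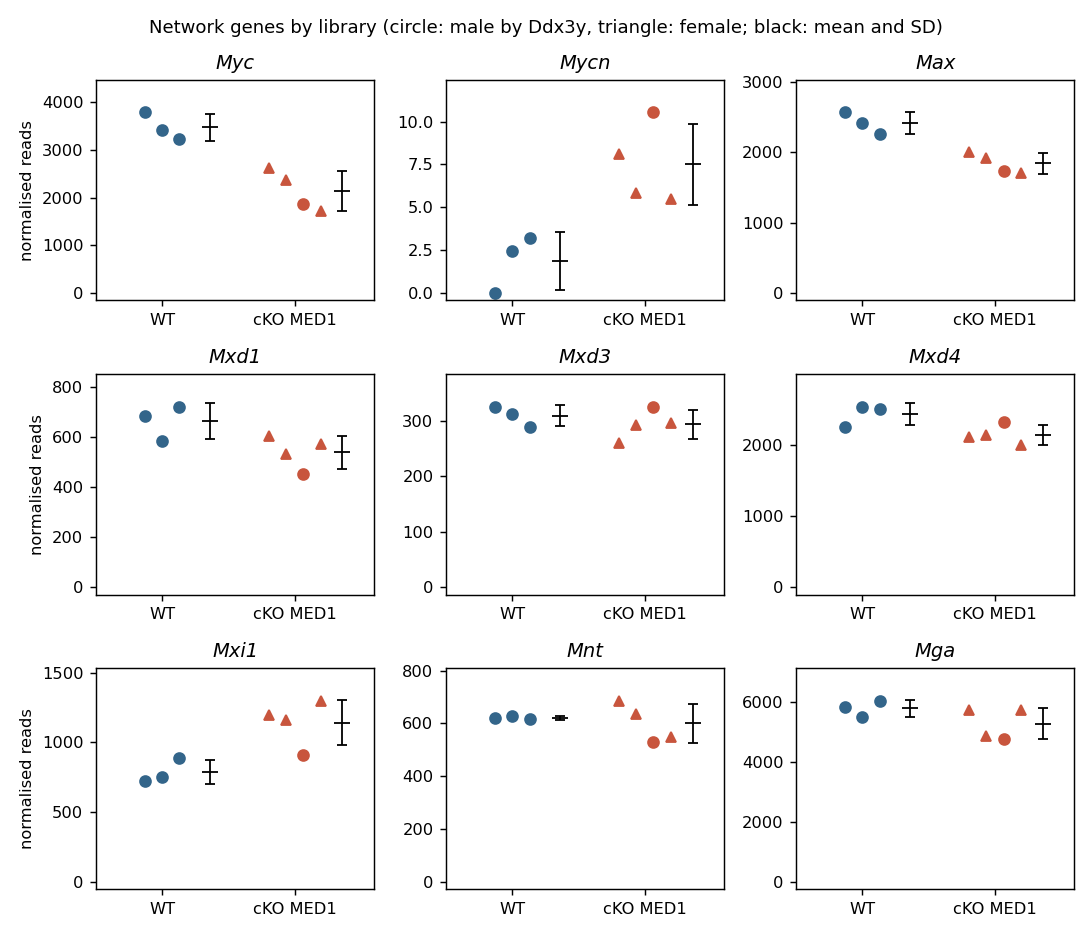
Normalised reads (y axis, from 0) of each of the 9 network genes in the 3 WT and 4 cKO MED1 libraries (x axis). Points are libraries, circles male and triangles female by Ddx3y, and black bars are the mean and SD. Myc and Max sit lower in all 4 cKO MED1 libraries, Mxi1 sits higher, Mycn is at 10.5 or less, and the groups overlap in the other 5 genes.

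Mxi1, an Mxd protein that recruits the Sin3 corepressor, was the only tested member that rose. It stood at 723, 749.9 and 886 normalised reads in WT and, by replicate number, at 1192, 1161, 911 and 1298 in cKO MED1. The 3 female cKO MED1 libraries were well above WT, whereas the male one, replicate 3, exceeded WT replicate 3 by few reads. WT averaged 786 ± 87.5 (SD, n = 3) and cKO MED1 1141 ± 164 (SD, n = 4), 145% of WT. The difference on the log2 scale was 0.53 with an SE of 0.13 (limma adjusted p = 0.0139). Within the male libraries the difference was 0.22, and with sex as a covariate the gene did not pass (limma adjusted p = 0.373). The call also ended with total reads as the scaling (0.29, limma adjusted p = 0.203), without WT replicate 1 (0.42, limma adjusted p = 0.0884) and without WT replicate 2 (0.44, limma adjusted p = 0.0571). With cKO MED1 replicates 3 and 4 both left out it was 0.59 (limma adjusted p = 0.0183). Mxi1 (ENSMUSG00000025025.14) lies on chromosome 19 from 53310518 to 53375810, plus strand. Its RefSeq windows lie at different transcript starts, which gene counts do not separate.

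The other 3 Mxd genes did not pass. Mxd1, first described as the Mad protein of differentiating cells, had 684, 585 and 722 normalised reads in WT and 603, 533, 452 and 571 in cKO MED1. Only cKO MED1 replicate 1 reached into the WT range. The log2 difference of Mxd1, -0.30, had an SE of 0.12 (limma adjusted p = 0.0800), and Mxd1 passed under 4 of 19 alternatives. It passed with the authors' scaling (-0.43, limma adjusted p = 0.0331) and with total reads (-0.54, limma adjusted p = 0.0192). Those scalings also lowered the median over all genes, from 0.04 to -0.10 and -0.21. Mxd1 passed as well without WT replicate 2 (-0.44, limma adjusted p = 0.0470) and without cKO MED1 replicate 1 (-0.37, limma adjusted p = 0.0412). Mxd3, an Mxd gene of dividing cells, had 326, 313 and 289 reads in WT and 260.2, 292, 325 and 296 in cKO MED1, with overlap, although cKO MED1 replicate 1 lay below every WT library (log2 fold change -0.08, SE 0.11, limma adjusted p = 0.628). Its end overlaps the abundant gene Prelid1 on the other strand, at a mean of 9216 reads, and reads of the pair cannot be told apart if counting ignored strand. Mxd4, the Mxd gene with the most reads here, had 2247, 2535 and 2499.9 reads in WT and 2104, 2141, 2321 and 1989 in cKO MED1. cKO MED1 replicate 3 lay above WT replicate 1, and the log2 fold change of -0.18 (SE 0.09) did not pass (limma adjusted p = 0.132).

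Mnt, the Max partner found in resting and growing cells alike, was even across the WT libraries at 619, 628 and 615 normalised reads. The cKO MED1 libraries spread around them at 686, 636, 528 and 549, around a log2 difference of -0.06 with an SE of 0.11 (limma adjusted p = 0.709). Mga, a large protein with both a T-box and a bHLHZip domain that works in a Polycomb complex, had 5829.5, 5499.9 and 6047 reads in WT. In cKO MED1 it had 5748, 4879, 4774 and 5741, 2 libraries inside the WT range and 2 below it (log2 fold change -0.14, SE 0.10, limma adjusted p = 0.299). Neither gene passed under any of the 19 alternatives.

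**Figure D2:**
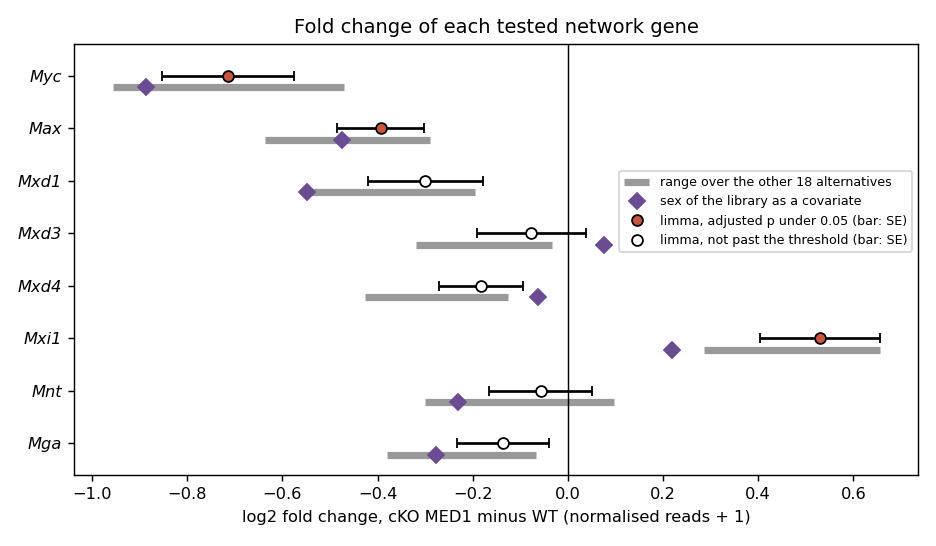
Log2 fold change (x axis, cKO MED1 minus WT on normalised reads + 1) of the 8 tested network genes (y axis). Circles are the limma estimate with its SE, filled where the adjusted p is under 0.05, grey bars span the other alternatives, and diamonds are the fit with sex as a covariate. Myc lies at -0.71, Max at -0.39 and Mxi1 at 0.53, and with sex as a covariate Mxi1 moves to 0.22.

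To set the members beside each other, normalised reads were divided by the summed exonic length of each gene. Per kb, Myc was the most abundant member in both groups, followed by Max, Mga and Mxd4, with no overlap between neighbours in that order. This order depends on the length used: with the longest transcript, Mxd4 (525 ± 34.0 in WT, 462 ± 29.7 in cKO MED1) stood above Mga (416 ± 19.8 and 379 ± 38.2). Max (947 ± 75.0) then stood above Myc (918 ± 181) in cKO MED1, with overlap. The values that follow are by summed exonic length, and with the longest transcript Mnt stood below Mxd1 in WT, with overlap. In WT, Mnt (134 ± 1.4), Mxd3 (130 ± 7.8) and Mxi1 (115 ± 12.8; SD, n = 3 for each) came next, and each neighbour pair overlapped. Mxd1 followed at 93.8 ± 9.98 and Mycn was last. In cKO MED1, Mxi1 stood ahead of Mnt and Mxd3, at 167 ± 24.0 against 130 ± 16.0 and 124 ± 11.3 (SD, n = 4), with overlap between Mxi1 and Mnt. With the longest transcript, Mxi1 (156 ± 17.4) already stood above Mnt (135 ± 1.4) in WT, with no overlap. It stood below Mxd3 there (177 ± 10.7), with overlap.

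The balance of Myc and its antagonists is given as a description, with no test, because the members were chosen with results known. The level per kb of Myc over the summed level of the 6 antagonists was 1.25, 1.12 and 1.01 in WT replicates 1 to 3. In cKO MED1, by replicate number, it was 0.849, 0.807, 0.667 and 0.562. Myc RNA thus exceeded the summed antagonists in every WT library and was below them in every cKO MED1 library. The sum itself was 1137 ± 33.3 (SD, n = 3) normalised reads per kb in WT and 1094 ± 48.3 (SD, n = 4) in cKO MED1, with overlap. With the longest transcript as the length, the ratio was 0.96 ± 0.105 in WT and 0.62 ± 0.11 in cKO MED1, so the side of 1 depends on the length used while the separation of the groups does not. Within the antagonists the share of Mxi1 was 10.1% ± 0.8 in WT and 15.2% ± 1.7 in cKO MED1. Mga held 33.2% ± 1.0 and 31.5% ± 1.9, Mxd4 25.2% ± 1.5 and 23.1% ± 2.5, and Mxd1 8.24% ± 0.73 and 6.96% ± 0.56. Max over Myc was 0.525 ± 0.012 in WT and 0.659 ± 0.079 in cKO MED1, and 0.837 ± 0.019 and 1.05 ± 0.125 with the longest transcript, a ratio of RNA levels that does not measure protein or dimers.

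**Figure D3:**
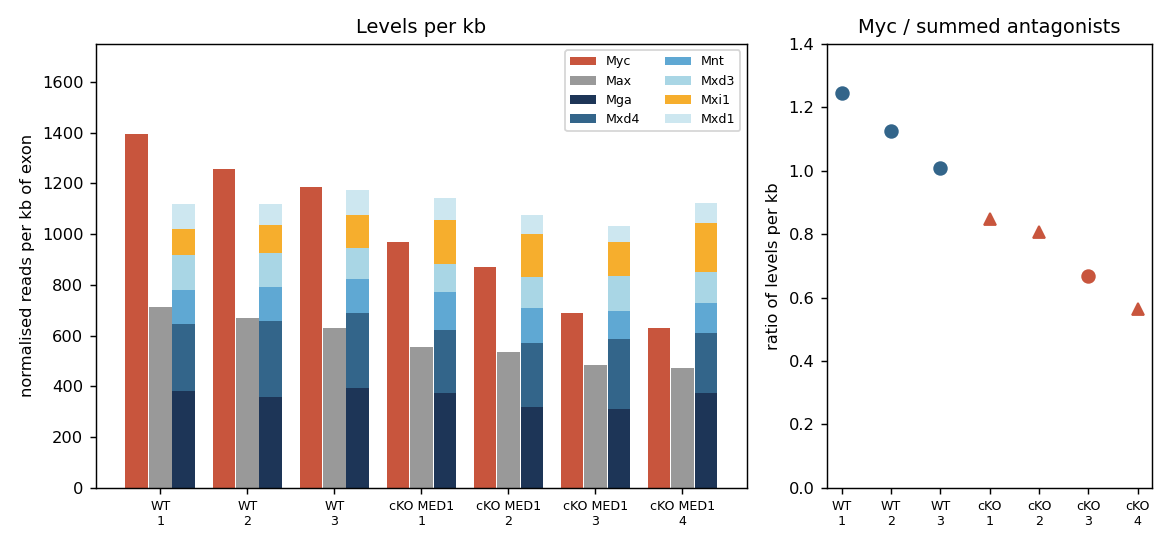
Left, normalised reads per kb of exon (y axis, from 0) of Myc, Max and the 6 stacked antagonists in each library (x axis). Right, Myc over the summed antagonists, circles male and triangles female libraries. The ratio is 1.01 to 1.25 in WT and 0.562 to 0.849 in cKO MED1, while the stacked antagonists keep a similar height.

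The wider network joins through Mlx, a Max-like partner of the glucose-sensing factors MondoA (Mlxip) and ChREBP (Mlxipl). Of 15 listed genes of this arm and of related E-box factors, 14 were tested, 1 fell and 4 rose, beside 14.6% lower and 13.4% higher over all tested genes. The median log2 fold change was -0.01 beside 0.04. Tfap4, an E-box factor and known Myc target, fell from a WT mean of 366 ± 53.2 (SD, n = 3) to a cKO MED1 mean of 212 ± 30.9 (SD, n = 4; log2 fold change -0.79, limma adjusted p = 0.00499), with no overlap. Mlxip rose from 3073 ± 62.8 to 3749.98 ± 161 (0.29, limma adjusted p = 0.0237), a call that ended in 9 of 19 alternatives, among them total reads and the authors' scaling. The circadian factor gene Clock (0.35), Mlxipl (1.65) and Mycl (1.23), another Myc paralog gene, rose as well. Mlxipl and Mycl had 5.51 to 11.2 and 9.79 to 25.5 reads in WT and 13.6 to 53.1 and 23.0 to 54.9 in cKO MED1, with overlap for Mycl. The calls of Clock, Mlxipl and Mycl ended in 10, 6 and 8 alternatives. Genes with few reads rose often: in the lowest class of mean level 22.0% were higher and 0.98% lower. Mlx itself did not pass (-0.04, limma adjusted p = 0.742).

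Known Myc target genes were grouped in 3 hand-made lists. In the list of ribosome biogenesis and the nucleolus, 36 of 37 tested genes fell and 0 rose. Over all tested genes 14.6% were lower and 13.4% higher, and in the highest class of mean level 27.6% and 5.4%. The list's median log2 fold change was -0.67, beside 0.04 over all tested genes and -0.15 in that class. The highest class holds 28 of the 37. Gnl3, a nucleolar GTPase gene, had 4709, 3932 and 3411 reads in WT and 2203, 2179.5, 2506 and 1967 in cKO MED1 (-0.85, limma adjusted p = 0.00116). The ribosome assembly genes Rrp12 (-0.92), Grwd1 (-0.95) and Utp20 (-0.91) had the next smallest adjusted p, and Las1l (-0.25) was the 1 gene that did not pass. Averaged over the list and set against the WT mean, the log2 level was 0.22, -0.03 and -0.19 in WT replicates 1 to 3. The cKO MED1 libraries stood, by replicate number, at -0.58, -0.63, -0.58 and -0.88.

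In the list of growth metabolism, 23 of 33 fell and 0 rose (median -0.51). The highest class of mean level, where 27.6% of genes were lower and 5.4% higher, holds 26 of the 33. Tfrc, the transferrin receptor gene, went from 14915, 10432 and 8973 reads in WT to 4465, 4948, 5987 and 3772 in cKO MED1 (-1.24, limma adjusted p = 0.00143). The mitochondrial chaperone gene Hspd1 (-0.90), the folate carrier gene Slc19a1 (-0.94) and the pyrimidine synthesis gene Cad (-0.85) fell too. In the list of cell cycle targets 8 of 17 fell and 1 rose (median -0.33), and 12 of the 17 lie in the highest class. The replicative helicase genes Mcm5 (-0.82) and Mcm4 (-0.68) and the centriole kinase gene Plk4 (-0.52) fell. The 1 gene that rose was Id2 (1.08), an inhibitor of E proteins that Myc is known to raise in other cells. Without WT replicate 1 the counts that fell were 27, 13 and 5 in the 3 lists, beside 5.25% of all genes. Without cKO MED1 replicates 3 and 4 they were 29, 18 and 6, beside 7.34% of all genes.

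E-boxes were present in the promoter windows of 9 of 31 genes of the ribosome biogenesis list with a window (29.0%), 7 of 29 in growth metabolism (24.1%) and 3 of 15 in the cell cycle list (20.0%). The share was 13.2% over tested genes of the highest class of mean level. Lists of other kinds spanned a wider range, from 1 of 17 (5.88%) in the corepressors and 2 of 20 (10.0%) in the cofactors to 6 of 15 (40.0%) in the regulators of the Myc locus and mRNA. In the list of genes taken as repressed through Myc and its partner Miz1 it was 3 of 13 (23.1%).

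A hand-made list of genes taken as held down by Myc through Miz1 did not move as 1 group: 4 of 14 rose and 1 fell (median 0.05). Whether each listed gene depends on Miz1 was not tested. Over all tested genes 13.4% were higher and 14.6% lower. Ndrg2, a growth-inhibiting gene, went from 41.3, 39.98 and 58.3 reads to 129, 141, 116 and 167 (1.56, limma adjusted p = 0.000625). The stress genes Gadd45b (0.57) and Gadd45a (0.49) and the CDK inhibitor gene Cdkn1b (0.30) rose, and Gadd45g (-0.46) fell. The Cdkn1b call ended in 8, the Gadd45a call in 6 and the Gadd45g call in 5 of 19 alternatives, with the authors' scaling among them for Cdkn1b and Gadd45a. Cdkn1a, another CDK inhibitor gene of this list, did not pass (-0.30, limma adjusted p = 0.135). Of 8 MondoA and ChREBP targets, the fatty acid synthesis genes Acaca (-0.46) and Fasn (-0.49) and G6pc3 (-0.32) fell and Pklr (1.82), at 31.1 reads or fewer in every library, rose. In the lowest class of mean level, of genes with few reads, 22.0% were higher. The G6pc3 call ended in 9 of 19 alternatives and the Pklr call in 8 of 18. Without WT replicate 1 the list had 1 gene lower, beside 5.25% of all genes. Txnip (0.16) and Arrdc4 (0.14), the targets most used to read MondoA, did not pass (limma adjusted p = 0.396 and 0.875). Arrdc4 was at only 4.82 to 21.1 reads, with an SE of 0.60. Its direction turned in 5 of 18 alternatives, so its value says little.

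**Figure D4:**
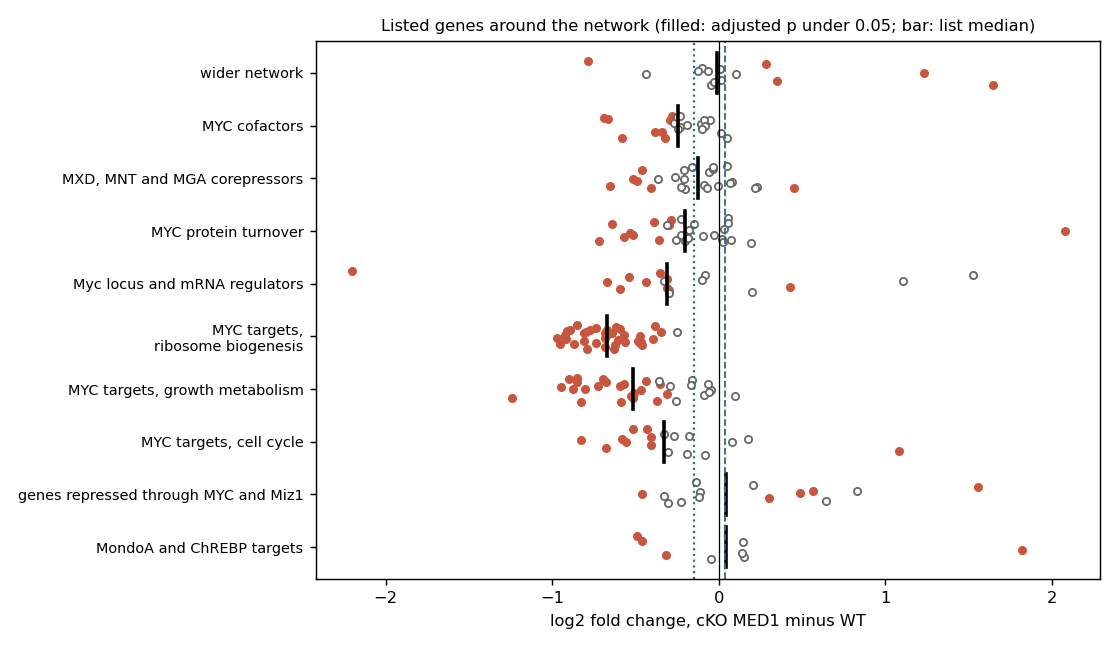
Log2 fold change (x axis, cKO MED1 minus WT) of each tested gene in the 10 lists around the network (y axis), filled where limma's adjusted p is under 0.05, with black bars at the list medians. The dashed and dotted lines are the medians of all tested genes (0.04) and of the highest class of mean level (-0.15). The ribosome biogenesis list, at a median of -0.67, has 36 of 37 genes filled on the lower side.

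Cofactors through which Myc acts fell in 8 of 21 cases and rose in 0 (median -0.24), and 20 of the 21 lie in the highest class of mean level, where 27.6% of genes were lower. The count that fell was 3 without WT replicate 1 or cKO MED1 replicate 4, and 4 without cKO MED1 replicate 3. It was 12 without cKO MED1 replicate 1, 4 with the replicate number as a block and 13 with total reads. Over all genes, 2646 of 18062 were lower in the main fit. This was 1029 of 19597 without WT replicate 1 and 1523 of 17117 without cKO MED1 replicate 4. Without cKO MED1 replicate 3 it was 2064 of 17159, and without cKO MED1 replicate 1 it was 3114 of 17818. With the block 1822 of 18062 were lower, and with total reads 4379. The list's counts moved in the same direction as these. Wdr5, which anchors Myc to chromatin, averaged 1691 ± 131 (SD, n = 3) in WT and 1133 ± 84.7 (SD, n = 4) in cKO MED1 (-0.58, limma adjusted p = 0.00256), and the helicase genes Ruvbl1 (-0.69) and Ruvbl2 (-0.67) and Actl6a (-0.38) fell. Of 24 corepressor genes of the antagonists, 5 fell and 1 rose (median -0.12), and 18 of the 24 lie in the highest class, so that the share that fell is below the 27.6% there. The count that fell was 2 without WT replicate 1, 3 without cKO MED1 replicate 4, 8 without cKO MED1 replicate 1 and 9 with total reads. The counts over all genes, given above for these settings, moved in the same direction. L3mbtl2 (-0.65) and Pcgf6 (-0.46), which work with Mga, and the Sin3 complex genes Sap30 (-0.49) and Rbbp7 (-0.51) fell, as did Cbx3 (-0.41).

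Genes that set the turnover of Myc protein fell in 9 of 27 cases and rose in 1 (median -0.20). This is near the 27.6% lower in the highest class, which holds 19 of the 27. Without WT replicate 1 the count that fell was 3, beside 5.25% of all genes lower. The deubiquitinase gene Usp36 (-0.57), the phosphatase inhibitor gene Set (-0.72) and the mitotic kinase gene Plk1 (-0.64) fell. Usp13 (2.08), at 3.44 to 10.6 reads in WT and 13.6 to 62.2 in cKO MED1, rose. Genes with few reads rose often, with 22.0% higher in the lowest class of mean level. Among 17 genes at the Myc locus or acting on its mRNA, of which 12 lie in the highest class, 9 fell and 1 rose (median -0.31), beside 14.6% lower over all tested genes and 27.6% in that class. The count that fell was 3 without WT replicate 1, 5 without cKO MED1 replicate 4 and 5 with the replicate number as a block. Over all genes, 1029 of 19597, 1523 of 17117 and 1822 of 18062 were lower in these settings, against 2646 of 18062 in the main fit. Igf2bp3, which binds and stabilises Myc mRNA, had 343, 283 and 340.1 reads in WT and 66.4, 64.3, 67.2 and 78.7 in cKO MED1 (-2.20, limma adjusted p = 6.93e-06). Cnbp (-0.59), Ptbp1 (-0.54) and Pcbp1 (-0.67) fell, and Zfp36 (0.43), which promotes mRNA decay, rose. Pvt1, the noncoding RNA gene beside Myc, did not follow it: it had 668, 749 and 602 reads in WT and 638, 833, 772 and 862 in cKO MED1 (0.20, limma adjusted p = 0.22). It is named here after its values were seen.

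Across the 10 lists, 101 of 209 tested genes fell and 13 rose, each gene counted once, beside 14.6% lower and 13.4% higher over all tested genes and 27.6% and 5.4% in the highest class of mean level. With sex as a covariate limma called 1 of these genes lower, Igf2bp3, and 0 higher, while 0 of the 8 members passed. In that fit 119 of all genes were lower (0.659%) and 109 higher (0.603%). Its genotype effect rests on 1 male cKO MED1 library, and the cause of the lost calls was not tested. Of the members, 3 were lower at an unadjusted p under 0.05 in that fit, namely Myc, Max and Mxd1, beside 2053 of all 18062 genes. The list medians were then -0.59 for ribosome biogenesis, -0.39 for growth metabolism and -0.27 for the cell cycle targets, with 33 of 37, 13 of 33 and 7 of 17 genes lower at an unadjusted p under 0.05. Without that covariate edgeR and DESeq2 also called Myc and Max lower and Mxi1 higher.

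The 5 genes whose log2 level followed Myc most closely over the 7 libraries were Smarce1, Cpsf3, Kdm1a, Cdk9 and Pi4kb, with Pearson r of 0.997, 0.996, 0.995, 0.995 and 0.994. They were the top of 7226 protein-coding genes with a mean of at least 500 normalised reads, of which 1580 had an r over 0.9. The libraries share depth and the first principal component, so this is a description of the libraries. Cdk9, the kinase that releases paused polymerase, is also in the cofactor list and had 1358, 1328 and 1253.5 reads in WT and 1154, 1129, 1029.9 and 983 in cKO MED1.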

How the data were processed

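Total RNA, depleted of ribosomal RNA, was sequenced from 3 WT and 4 cKO MED1 libraries. The authors deposited 1 table of signal values per gene, read counts divided by 1 size factor per library: dividing each column by its own step gave whole reads for 100% of the values (tolerance 1e-06), and those reads were used. The tools named by the submitters' processing notes are DESeq2, R 3.4, Subread 1.5.0-p3 with featureCounts, and STAR 2.4.0a, and the build is GRCm38 (mm10); the role of each and the strand setting are not given in the sources used here. Features were filtered by filterByExpr (18062 of 46959 features kept), and TMM factors from edgeR 4.0.16 in R 4.3.3 were computed on those kept. The scaled reads were tested with limma 3.58.1 (trend in the prior variance) on log2(normalised reads + 1). Adjustment was Benjamini-Hochberg over all genes tested, threshold 0.05. The log2(normalised reads + 1) scale understates changes of genes with few reads. Lengths and positions are those of GENCODE vM21 (GRCm38) by symbol, promoters those of RefSeq (GRCm38.p6). The fit was checked on simulated reads with known changes. These reads were drawn independently for each gene, with no sex difference and no component shared between genes. The check therefore does not cover those features of the data. The 19 alternatives include edgeR's quasi-likelihood test and DESeq2 1.42.0 on recovered reads, other scalings, filters and a pseudocount of 5, the replicate block, sex, a background subtraction from 1451 receptor genes, and libraries left out. Members, gene lists and tests were chosen with earlier results of these data known. The named genes are all members, Med1, tested genes of the wider network, from each other list up to 4 called genes with the smallest adjusted p or all called genes where 5 or fewer were called, the readout genes Cdkn1a, Cdkn1b, Txnip and Arrdc4, and the 5 genes most like Myc. Sap30, Pcgf6, Zfp36, Usp13, Las1l and Pvt1 lie outside this rule and were named after their values were seen, as were the marker genes Cd3e, Lck and Bcl11b. Some genes that meet the rule are not reported here. Intervals were not computed; SDs cover the spread between libraries.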

Additional observations from a re-analysis of the deposited data

Results flagged for a closer look

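In the 4 cKO MED1 libraries, 19 items (9 members and 10 list means) were examined for a library far from the others, which chance gives in about 1 of 20 groups, and 2 list means were. For the Myc targets of ribosome biogenesis the gap of cKO MED1 replicate 4 (-0.88, against -0.58 to -0.63 in replicates 1 to 3) was 0.838 of the range. For the MondoA and ChREBP targets the gap of cKO MED1 replicate 2 (-0.14, against 0.18 to 0.24 in the other libraries) was 0.85 of the range. None of the 9 members was marked this way.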

How the results depend on the processing

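With all 7 libraries and genotype as the only term, Myc and Max were lower and Mxi1 higher in each alternative except Mxi1 with total reads (0 members higher), a scaling that shifts the all-gene median from 0.04 to -0.21 (authors' scaling: -0.10). Myc passed in 18 of 19 alternatives (-0.96 to -0.47), Max in 16 and Mxi1 in 15. With sex as a covariate 0 members were lower and 0 higher. The listed genes lower were 1 and higher 0 in that fit, and the 3 Myc target lists had 0, 0 and 0 lower. Its genotype effect rests on 1 library, and the cause of these losses was not tested. Without cKO MED1 replicates 3 and 4, 1 member was lower and 6 listed genes were higher, beside 7.34% and 5.0% of all genes. Listed genes higher were 8 with total reads, 8 with the authors' scaling and 8 with the replicate block. Over all 18062 genes, 2044, 2133 and 1919 were higher in these settings, against 2419 in the main fit. Leaving out 1 library gave 1 to 3 members lower and 0 to 1 higher. It gave 58 to 113 listed genes lower and 4 to 14 higher. In the lists of ribosome biogenesis, growth metabolism and cell cycle it gave 27 to 37, 13 to 24 and 5 to 9 lower. The lowest counts came without WT replicate 1, where 1029 of all 19597 tested genes were lower and 527 higher. Without cKO MED1 replicate 1 these all-gene counts were highest, at 3114 and 3012 of 17818. The balance in WT was 0.960 with the longest transcript. Directions turned, none of them called, for Mxd3 with sex (0.075), Mnt without cKO MED1 replicates 3 and 4 (0.096), Mlx with the replicate block (0.012) and sex (0.13), Pvt1 with total reads (-0.041), Txnip with total reads (-0.088) and sex (-0.0204), and Arrdc4 with total reads (-0.0847), the block (-0.012) and without cKO MED1 replicates 3 and 4 (-0.41). Leaving out 1 library gave -0.14 to 0.023 for Mnt, above 0 without cKO MED1 replicate 3 or 4, and -0.10 to 0.034 for Mlx, above 0 without cKO MED1 replicate 4. It gave -0.012 to 0.25 for Txnip, below 0 without WT replicate 1, and -0.48 to 0.59 for Arrdc4, below 0 without WT replicate 1 or cKO MED1 replicate 3. The labels do not say that equal replicate numbers share a mouse or day, and same-numbered libraries correlated at 0.51, -0.23 and 0.16 in their deviations, so the numbers were not taken as pairs; with the replicate block all genes called fell from 5065 to 3741, 2 members were lower and 1 higher. The 3 and 4 libraries a group limit the precision.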
